A study of Mus musculus with 22 samples.

Results

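Cyclic nucleotide and G protein signalling was followed through 102 protein-coding genes, out of 30332 genes in at least 1 of the 2 count tables made from endocrine cells of control and Isl1CKO mice. The genes were chosen by symbol: the phosphodiesterases (Pde), adenylyl cyclases (Adcy), subunits of protein kinase A (Prkac and Prkar), G protein subunits (Gna, Gnb and Gng), G protein-coupled receptor kinases (Grk), regulators of G protein signalling (Rgs), the EPAC exchange factors Rapgef3 and Rapgef4, and Crem. By role they were 13 Gα, 6 Gβ and 10 Gγ genes, 10 adenylyl cyclases, 25 phosphodiesterases, 2 catalytic and 4 regulatory subunits of protein kinase A, 2 EPAC genes, Crem, 6 GRK genes and 23 RGS genes. A choice by symbol also took in genes that share only the name of a family, among them Pde6d, which codes for a carrier of prenylated proteins, and Gnb1l, which codes for a WD40 repeat protein. All 102 were in the E14.5 table and 100 in the P9 table. Pde2a was not analysed here.

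Each library held the RNA of sorted tdTomato+ cells that the labels call endocrine cells of the pancreas. Isl1CKO mice carried Isl1 f/f, Neurod1-Cre and the TomatoAi14 reporter. The labels call the controls WT, while the study's description of the E14.5 experiment gives them as Isl1 f/+ with the same Cre and reporter, so that Cre was shared and 1 Isl1 allele was floxed in controls as well. Neurod1-Cre comes from a transgene that is active in endocrine precursors, and tdTomato marks every cell that once had Cre activity as well as its progeny. The 4 groups were control (n = 6) and Isl1CKO (n = 5) embryos at E14.5, and control (n = 5) and Isl1CKO (n = 6) pups at P9, littermates of both sexes on a C57BL/6 background. Embryonic pancreas was trypsinized directly and postnatal pancreas was first perfused with collagenase, so age and dissociation cannot be told apart. The study describes the E14.5 libraries as biological replicates, while the labels do not tie libraries to animals. The p-values therefore measure the spread between these libraries, which may be technical in part.

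When a hormone or neurotransmitter binds a G protein-coupled receptor, Gα exchanges GDP for GTP and parts from Gβγ. Gsα, made by Gnas, activates the adenylyl cyclases, which make cAMP, and the Gαi proteins inhibit them. Cyclic AMP acts on protein kinase A and EPAC and, through CREB and CREM, on transcription, and phosphodiesterases degrade it. RGS proteins shorten the active state of Gα, and GRKs phosphorylate active receptors so that arrestins can bind. In pancreatic β cells cAMP amplifies glucose-stimulated insulin secretion, which is the route of GLP-1, while adrenaline and somatostatin lower secretion through inhibitory G proteins.

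Depth was 8477482 to 13580985 counts per library. Levels are given as CPM, the counts of a gene scaled by the library size after TMM scaling over all 22 libraries. Hormone genes took 51.1 to 56.4% of the counts in P9 controls and 14 to 30.2% in P9 Isl1CKO libraries, against 2.44 to 6.17% and 0.71 to 2.49% at E14.5. The mitochondrial share at P9 was 1.94 to 2.69% in controls and 2.68 to 3.89% in Isl1CKO libraries. All 8 endocrine markers passed the filter on low counts at both ages. The summed macrophage markers were highest in Isl1CKO libraries 3 and 4 of E14.5 (64.6 to 86.9 CPM, against 28.5 to 46 CPM in the other E14.5 libraries), where 4 of 8 markers passed the filter. The summed acinar markers were highest in control library 3 of P9, at 1098 CPM against 49 to 364 CPM in the other P9 controls, and of the acinar markers 5 of 5 tested had negative values at P9, 3 with an unadjusted p under 0.05. The summed hepatoblast markers did not overlap between the genotypes, at 3192 to 3955 CPM in E14.5 controls and 4913 to 6784 CPM in E14.5 Isl1CKO libraries, and at 1601 to 4937 and 5574 to 8779.6 CPM at P9. Of these markers 7 of 7 had positive values at E14.5 and 3 were called higher by edgeR, Ttr, Fgb and Apoa1, and at P9 1 of 4, Ttr, which islet cells also express. The mesenchyme markers had negative values at E14.5 for 3 of 3 tested, with 0 called and 3 with an unadjusted p under 0.05. The part of these markers in the results below was not tested. Isl1 was lower in Isl1CKO at E14.5 (576 to 740.4 against 823 to 1083 CPM) and higher in the libraries labelled Isl1CKO at P9 (435 to 1223 against 344 to 507 CPM). A gene count also takes reads from exons that the floxed allele keeps, so it does not check the labels.

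The promoters of Grk5, Pde1a and Gnas are printed. These genes were named when the family was chosen, with earlier results of these data known. They also had the smallest edgeR adjusted p of the members at P9. Each window runs from 250 bases before to 50 bases after a RefSeq start on GRCm38.p6, a length of 300 bases, and 77 of the 102 members had at least 1 window. Capitals mark TAAT or ATTA, the core that homeodomain proteins such as ISL1 bind, and TGACG or CGTCA, the shortened cAMP response element. The windows lie at chr19:60889499-60889798 on the plus strand, at chr2:80129363-80129662 on the minus strand, the outermost of 4 for Pde1a, and at chr2:174329756-174330055 on the plus strand, the most downstream of 4 for Gnas.
Grk5: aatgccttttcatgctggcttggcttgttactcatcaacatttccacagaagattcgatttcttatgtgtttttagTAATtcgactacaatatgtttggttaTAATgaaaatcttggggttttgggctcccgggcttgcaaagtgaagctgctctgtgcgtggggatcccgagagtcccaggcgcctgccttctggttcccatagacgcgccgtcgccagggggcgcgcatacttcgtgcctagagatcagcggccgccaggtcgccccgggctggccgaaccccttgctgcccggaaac
Pde1a: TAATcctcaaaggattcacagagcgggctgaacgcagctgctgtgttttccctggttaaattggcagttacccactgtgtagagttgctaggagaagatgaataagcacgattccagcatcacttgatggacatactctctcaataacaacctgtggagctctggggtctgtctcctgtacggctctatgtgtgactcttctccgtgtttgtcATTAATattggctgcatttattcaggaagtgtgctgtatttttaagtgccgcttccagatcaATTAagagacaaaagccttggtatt
Gnas: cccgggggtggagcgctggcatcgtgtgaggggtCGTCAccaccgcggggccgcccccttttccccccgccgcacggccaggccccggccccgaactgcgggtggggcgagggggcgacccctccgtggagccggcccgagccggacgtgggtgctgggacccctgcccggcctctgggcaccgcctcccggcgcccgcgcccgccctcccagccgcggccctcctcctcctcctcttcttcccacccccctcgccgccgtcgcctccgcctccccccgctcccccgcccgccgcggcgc
On both strands the Grk5 window held 2 TAAT matches, the Pde1a window 4, of which 2 overlap, and the Gnas window 0, where 58% of all 32851 windows held at least 1. The Gnas window held 1 TGACG match and the other printed windows 0, against 20.8% of all windows with a match. The Pde1a windows not printed held 3, 3 and 1 TAAT matches, and 1 of them held a TGACG match. The counts thus depend on the start that was printed. The palindrome TGACGTCA, which contains TGACG, was in 1.79% of all windows, and TAATTA, which contains TAAT, in 5.29%. Neither was in the 19 windows of the 9 called members that had one. The GC content was 54.3% for Grk5, 44.3% for Pde1a and 81.7% for Gnas, beside a median of 52.7% over all windows. Such matches describe the letters of these windows and no more.

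Grk5, which codes for a kinase of active receptors, was lower in Isl1CKO at both ages, and by more at P9. At E14.5 the controls held 14.8, 18.1, 19.6, 21, 15.4 and 28.5 CPM and the Isl1CKO libraries 5.22, 6.99, 8.9, 4.75 and 6.07 CPM. Every Isl1CKO library was below every control library. At P9 the controls held 48.7, 33.5, 34.8, 32.4 and 36.4 CPM and the Isl1CKO libraries 0.623, 1.41, 3.33, 2.1, 0.194 and 4.03 CPM. The P9 groups also stood apart. The log2 fold change was -1.62 ± 0.23 (SE) at E14.5, a 3.07-fold lower level (edgeR adjusted p = 0.00216), and -4.28 ± 0.57 at P9, a 19.4-fold lower level (adjusted p = 0.000417). The effects at the 2 ages differed by -2.66 ± 0.58 on the log2 scale (adjusted p = 0.0157), and leaving out any 1 library kept each of these calls. The gene lies at chr19:60889749-61095968 (GRCm38) and shares no exonic bases with another annotated gene. In bulk RNA, fewer cells that express a gene and less of its RNA per cell cannot be told apart, here and in all that follows.

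Gnas, the gene of Gsα, was higher in Isl1CKO at P9 and not called at E14.5. The P9 controls held 61.1, 36.3, 64.2, 37.6 and 51.2 CPM and the P9 Isl1CKO libraries 136, 145, 155, 129.8, 153 and 162 CPM. All 6 Isl1CKO libraries were above all 5 controls. At E14.5 the controls held 171, 244, 235, 229, 227 and 240.2 CPM and the Isl1CKO libraries 228, 206, 207, 208 and 222 CPM, within the range of the controls. The log2 fold change was 1.51 ± 0.18 at P9, or 2.85-fold (edgeR adjusted p = 0.000209), and -0.071 ± 0.091 at E14.5 (adjusted p = 0.849). The effects at the 2 ages differed by 1.59 ± 0.20 (adjusted p = 7.93e-05). With age the controls changed by -2.03 ± 0.15 on the log2 scale (adjusted p = 3.21e-10), so the P9 Isl1CKO libraries lay between the P9 and the E14.5 controls in level. The locus, chr2:174284320-174346744, also gives the XLαs and NESP55 transcripts, and the count sums them. Of its exonic bases 13.1% and 8.83% are shared with Gm20721 and Nespas on the other strand, and the counts do not use strand.

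Pde1a codes for a phosphodiesterase that calcium and calmodulin activate, and it had the largest positive fold change of the members called at P9. The P9 controls held 1.87, 1.16, 10.4, 5.55 and 3.68 CPM and the P9 Isl1CKO libraries 50.6, 82.5, 103, 72.8, 139.6 and 94.8 CPM. The lowest Isl1CKO library was well above the highest control. At E14.5 the ranges overlapped, with 25.5, 27.8, 22.3, 46.8, 37.9 and 41.6 CPM in controls and 31.3, 32.1, 34, 44.7 and 24.9 CPM in Isl1CKO. The log2 fold change was 4.26 ± 0.50 at P9, or 19.1-fold (edgeR adjusted p = 0.000143), and -0.014 ± 0.20 at E14.5 (adjusted p = 0.989), and the effects differed by 4.29 ± 0.53 (adjusted p = 7.93e-05). With age the controls changed by -2.74 ± 0.39 (adjusted p = 1.13e-05). Control library 3 of P9 had the highest Pde1a of its group and the highest acinar markers. Without it the P9 value was 4.86, the difference between the ages 4.88 and the age value -3.34. The gene lies at chr2:79834453-80129458 and shares no exonic bases with another annotated gene.

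**Figure D1:**
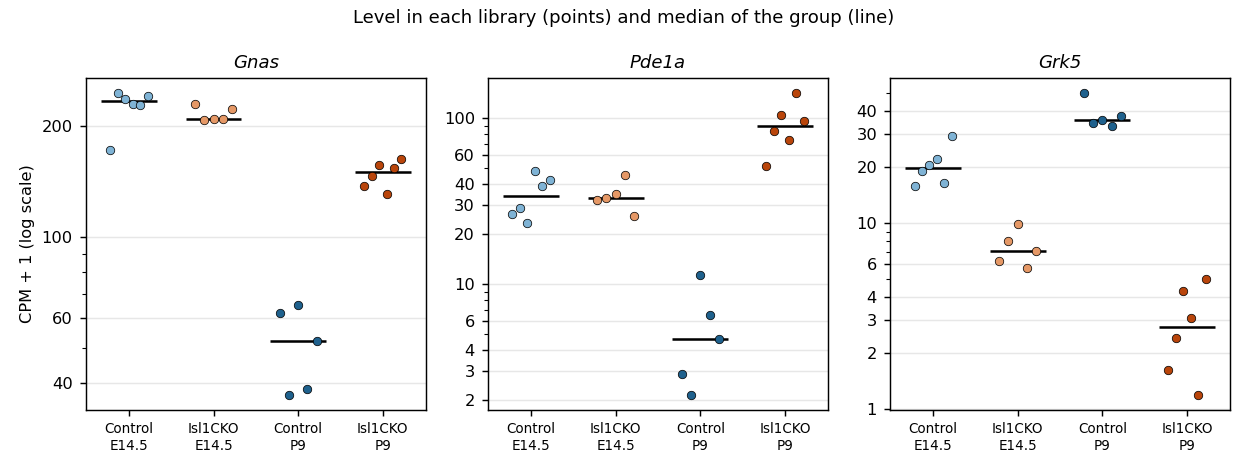
Level of Gnas, Pde1a and Grk5 in CPM + 1 on log axes, with 1 point per library and a line at the median of each of the 4 groups. At P9 Gnas and Pde1a were higher in all 6 Isl1CKO libraries than in the 5 controls, and Grk5 was lower in Isl1CKO at both ages.

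Over all members, few were called at E14.5 and more at P9. At E14.5, 83 of the 102 members passed the filter on low counts. A gene was called where its edgeR adjusted p over all genes tested was under 0.05. This held for 1 member higher and 1 lower (1.2% of the tested each), against 0.602% higher and 0.827% lower of all 15960 genes. The groups did not overlap for 5 members (3 higher, 2 lower), or for 2.47% of all genes. The median log2 fold change was 0.026 over the members and -0.0045 over all genes. An unadjusted p under 0.05 was found for 14 of the 83 members and for 1827 of the 15960 genes. DESeq2 called 5 members and limma-voom 4, counts that show the dependence on the tool and are not read as a result about the members.

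At P9, 71 of 100 members passed the filter, and 5 were called higher (7.04%) and 4 lower (5.63%), against 2.66% and 2.14% of all 13964 genes. The groups did not overlap for 9 members, or for 5.59% of all genes. The median log2 fold change was 0.014 over the members and 0.023 over all genes, so the called members moved in both directions. The effect of genotype differed between the ages for Gnas and Pde1a upward and for Grk5 and Gnai2 downward, 2.3% of the 87 tested each way, against 1.23% and 0.851% of all 17265 genes.

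**Figure D2:**
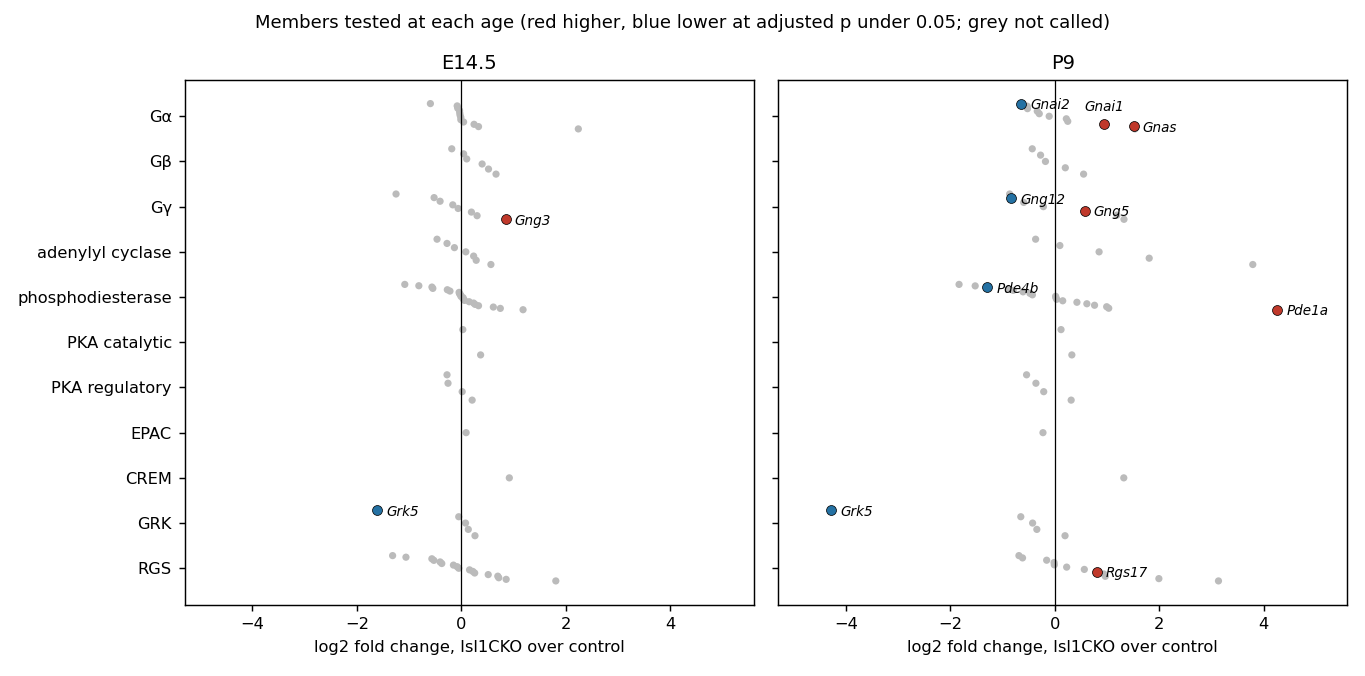
Log2 fold change of Isl1CKO over control for each member tested at E14.5 (83) and at P9 (71), arranged by role. Red points are members called higher and blue points members called lower with TMM scaling, and grey points were not called. The called members are named, 2 at E14.5 and 9 at P9.

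The P9 values depended on how the libraries were scaled, and the hormone share of the counts differed between the P9 groups. With totals of all counts the median of all genes moved to 0.68 on the log2 scale, the P9 calls became 24 higher and 1 lower, and the differences between the ages 15 higher and 1 lower. When the 8 hormone genes were kept out of the totals, the median was -0.091 and the P9 calls 3 higher and 5 lower. The counts under these other totals show the dependence on scaling and are not read as a result about the members. Values are from TMM scaling unless stated.

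**Figure D3:**
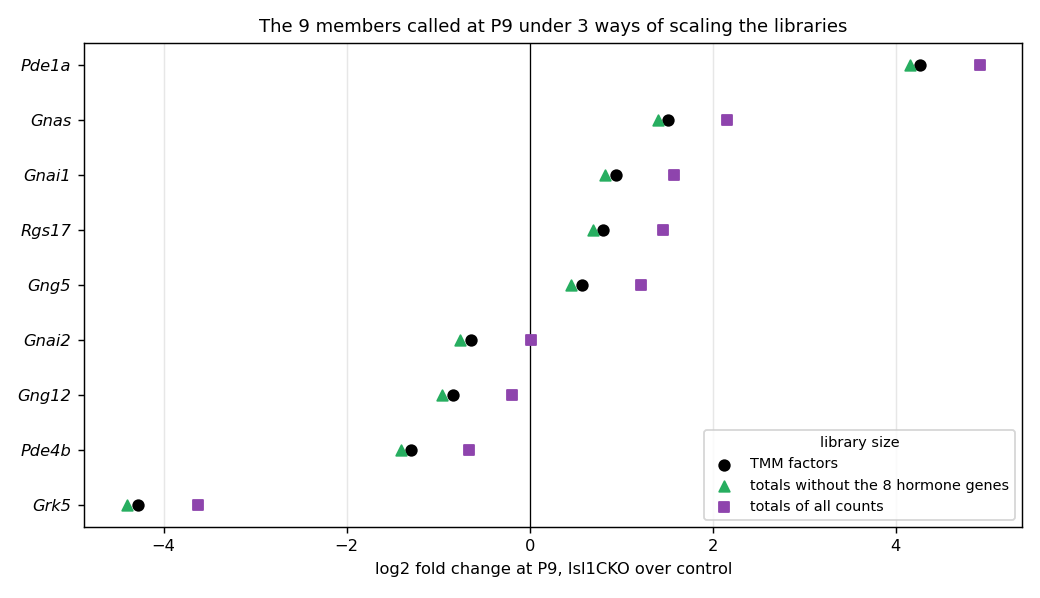
Log2 fold change at P9 of the 9 called members under TMM factors (circles), totals without the 8 hormone genes (triangles) and totals of all counts (squares). For all 9 the square lies to the right of the circle, and for Gnai2 it lies at 0.0083, so that only this member changes sign.

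Of the 11 Gα genes tested at P9, 2 were called higher (18.2%) and 1 lower (9.09%), against 2.66% and 2.14% of all genes. The inhibitory members went both ways. Gnai1 held 121, 162, 182, 171, 103 and 103 CPM in Isl1CKO and 96.4, 69.2, 47.1, 48.1 and 97.9 CPM in controls. The lowest Isl1CKO libraries were just above the highest controls. Its log2 fold change was 0.94 ± 0.24 (edgeR adjusted p = 0.0363), and the call was lost without control libraries 2, 3 or 4 or Isl1CKO libraries 2, 3 or 4 (adjusted p up to 0.0931) and with totals without the hormone genes (adjusted p = 0.0571) or limma-voom (adjusted p = 0.0504). Gnai2, the Gα gene with the highest level per kilobase in P9 controls, held 467, 443, 421, 335 and 450.2 CPM in controls and 295, 296, 257, 245, 278 and 294 CPM in Isl1CKO. Every Isl1CKO library was below every control. The difference was -0.65 ± 0.12 on the log2 scale (adjusted p = 0.0045) with TMM scaling and 0.0083 with totals of all counts. At E14.5 the ranges overlapped, 233 to 294 CPM in controls and 232 to 283 CPM in Isl1CKO, and the effects at the 2 ages differed by -0.63 ± 0.14 (adjusted p = 0.0143; -0.0031 and adjusted p = 0.991 with totals of all counts). Gnai3, also inhibitory, held 132 to 245 CPM in P9 controls and 96.9 to 143 CPM in P9 Isl1CKO, overlapping ranges (-0.52 ± 0.18, adjusted p = 0.108; 0.14 with totals of all counts). Gnal, the olfactory relative of Gnas, reached at most 6.78 CPM in any library.

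Among the subunits of the Gβγ dimer, the calls were in Gγ. At P9 1 of the 7 Gγ genes tested was called higher and 1 lower (14.3% each), against 2.66% and 2.14% of all genes. Gng12, the Gγ gene with the highest level per kilobase in the controls of both ages, held 433, 593, 467, 475 and 469 CPM in P9 controls and 299.9, 366, 279.98, 259, 198 and 272 CPM in P9 Isl1CKO. The groups did not overlap. Its log2 fold change was -0.84 ± 0.15 (edgeR adjusted p = 0.00418), and -0.20 (adjusted p = 0.255) with totals of all counts. At E14.5 it held 314 to 613 CPM in controls and 331 to 537 CPM in Isl1CKO, overlapping ranges (-0.41 ± 0.16, adjusted p = 0.316). Gng5 held 162, 143, 170.1, 154, 123 and 183 CPM in P9 Isl1CKO and 118, 97, 95.6, 89.8 and 112 CPM in P9 controls. The lowest Isl1CKO library was a few CPM above the highest control, and the log2 fold change between the groups was 0.57 ± 0.14 (adjusted p = 0.0332). The call was lost without control libraries 2, 3, 4 or 5 or Isl1CKO libraries 1, 3, 4 or 6 (adjusted p up to 0.0873) and with totals without the hormone genes (adjusted p = 0.0752). Gng5 has a pseudogene, and reads that map to more than 1 place were not counted.

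Gng3, a Gγ gene known from neurons, was the 1 member called higher at E14.5. The controls held 23.9, 20.6, 16.2, 15.8, 24.9 and 22.6 CPM and the Isl1CKO libraries 29.5, 52.8, 38.7, 36.8 and 28.3 CPM, with no overlap (0.84 ± 0.19, edgeR adjusted p = 0.0388). The call was lost without control libraries 2, 3, 4 or 6 or Isl1CKO libraries 2, 3 or 4 (adjusted p up to 0.1), and without both Isl1CKO libraries of highest macrophage markers (0.82, adjusted p = 0.195). Of its exonic bases 24.2% are shared with Bscl2 on the other strand, and the counts do not use strand. How reads in the shared bases were assigned was not examined. At P9 Gng3 reached at most 1.07 CPM in controls and 1.41 CPM in Isl1CKO and was not tested. Gnb1, the Gβ gene with the highest level per kilobase, held 387 to 595 CPM in P9 controls and 325.9 to 526.4 CPM in P9 Isl1CKO, overlapping ranges (-0.43 ± 0.17, adjusted p = 0.171; 0.22 with totals of all counts). Gnb1l held 3.19 to 9.44 CPM in E14.5 controls and 5.84 to 10.3 CPM in Isl1CKO, which also overlap.

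None of the adenylyl cyclases was called at P9 with edgeR. Of the 5 tested 2 had an unadjusted p under 0.05, against 2433 of all 13964 genes. DESeq2 called Adcy8 and Adcy1, and limma-voom did not call them. Adcy8, which calcium stimulates, held 0.134, 0.289, 0.76, 0.3 and 0.762 CPM in P9 controls and 0, 3.35, 2.68, 13.8, 7.87 and 12.3 CPM in P9 Isl1CKO. Isl1CKO library 1 stood with the controls (3.79 ± 1.07, edgeR adjusted p = 0.0549). Adcy1, also stimulated by calcium, held 13.5, 1.16, 1.27, 3.6 and 7.11 CPM in controls and 8.62, 22.4, 28.6, 18, 17.4 and 18.2 CPM in Isl1CKO. Control library 1 overlapped the Isl1CKO range (1.81 ± 0.60, adjusted p = 0.108), and without it the value was 2.50 (adjusted p = 0.0304). Adcy9, the cyclase with the highest level per kilobase in controls, held 30 to 49.65 CPM in P9 controls and 22.4 to 44.7 CPM in Isl1CKO (-0.37 ± 0.24, adjusted p = 0.493; 0.28 with totals of all counts).

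Of the 18 phosphodiesterases tested at P9, edgeR called Pde1a higher and Pde4b lower, 5.56% each way, against 2.66% and 2.14% of all genes. Pde4b, which degrades cAMP, held 30.5, 51.6, 80.9, 48.9 and 31.7 CPM in P9 controls and 29.3, 30.8, 9.01, 21.5, 19.9 and 13.1 CPM in P9 Isl1CKO. The highest Isl1CKO library overlapped the lowest control (-1.30 ± 0.35, edgeR adjusted p = 0.0477). The call was lost without control libraries 2, 3 or 4 or Isl1CKO libraries 3, 4, 5 or 6 (adjusted p up to 0.142) and with totals of all counts (-0.66, adjusted p = 0.173) or limma-voom (adjusted p = 0.0502). DESeq2, with values for 25 genes of the class, called Pde1a, Pde4d and Pde10a higher and Pde4b lower at P9, and limma-voom called only Pde1a. Pde1c, Pde4d and Pde10a are named here after their values were seen. Pde1c, calmodulin-activated like Pde1a, held 35.6, 40.03, 4.3, 22.8 and 36.6 CPM in P9 controls and 56.8, 62.3, 62, 52.8, 42.6 and 61.1 CPM in Isl1CKO. The groups did not overlap, yet the difference missed the threshold (0.99 ± 0.39, adjusted p = 0.178). Pde4d, which degrades cAMP, held 8.09 to 21.7 CPM in controls and 17.9 to 44.5 CPM in Isl1CKO (1.03 ± 0.33, adjusted p = 0.0906), with overlap, and DESeq2 called it (adjusted p = 0.0116). Pde6c, known from cone photoreceptors, held 20.4, 17.5, 18.1, 20.1, 24.7 and 24.9 CPM in E14.5 controls and 3.57, 8.56, 13.4, 16.3 and 7.55 CPM in E14.5 Isl1CKO. These groups did not overlap, and the difference missed the threshold with edgeR (-1.09 ± 0.30, adjusted p = 0.116) and passed it with DESeq2 (adjusted p = 0.015) and limma-voom (adjusted p = 0.0472). Pde6d had the highest level per kilobase of the class, with 51.9 to 104 CPM in P9 controls and 31.3 to 85.3 CPM in Isl1CKO, which overlap.

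No subunit of protein kinase A and no EPAC gene was called by edgeR at either age, and DESeq2 and limma-voom also called 0. Of the 6 kinase subunits, 2 had an unadjusted p under 0.05 at E14.5 and 1 at P9, and of the EPAC genes 0. Over all genes this held for 1827 of 15960 at E14.5 and 2433 of 13964 at P9. Prkar1a, a regulatory subunit that holds the kinase inactive without cAMP, had 860.1 to 1057 CPM in E14.5 controls and 1037 to 1263 CPM in Isl1CKO (0.20 ± 0.068, edgeR adjusted p = 0.21). At P9 it had 714 to 906 CPM in controls and 773 to 1208 CPM in Isl1CKO (0.31 ± 0.14, adjusted p = 0.254). The groups overlapped at both ages. The catalytic subunit gene Prkacb had 112 to 161 CPM in E14.5 controls and 141 to 216 CPM in Isl1CKO (0.37 ± 0.12, adjusted p = 0.205). Prkaca, the other catalytic gene, had 76.6 to 93.8 CPM in P9 controls and 74.4 to 142 CPM in Isl1CKO (0.33 ± 0.17, adjusted p = 0.353). Rapgef4, the EPAC gene with the higher level, had 120.2 to 177 CPM in P9 controls, inside the Isl1CKO range of 81.5 to 209 CPM.

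Crem, which gives activators and repressors of cAMP-driven transcription, had positive values at both ages that missed the threshold. At E14.5 the controls held 22.6, 28.4, 22.1, 16.9, 15.3 and 14.4 CPM and the Isl1CKO libraries 56.4, 27.8, 42.8, 28.2 and 33.6 CPM. Control library 2 stood above the 2 lowest Isl1CKO libraries (0.92 ± 0.23, edgeR adjusted p = 0.0652). At P9 the controls held 18.2, 20.7, 4.43, 36.4 and 24.5 CPM and the Isl1CKO libraries 62.1, 65.9, 72.2, 32.6, 52.9 and 31.3 CPM (1.32 ± 0.41, adjusted p = 0.0826). Control library 4 overlapped the Isl1CKO range. DESeq2 called Crem at E14.5 (adjusted p = 0.00511) and at P9 (adjusted p = 0.0312), and limma-voom called it at neither age.

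Rgs17, a regulator of inhibitory Gα proteins, was the 1 RGS gene called at P9, of 12 tested (8.33%). Of all genes 2.66% were called higher at P9. It held 49.6, 47.3, 42.9, 56.7 and 30.9 CPM in P9 controls and 76, 78.4, 80.6, 90.3, 64.1 and 99.6 CPM in P9 Isl1CKO. Every Isl1CKO library was above every control (0.80 ± 0.19, edgeR adjusted p = 0.0269). The call was lost without control libraries 2, 3 or 5 or Isl1CKO libraries 4 or 6 (adjusted p up to 0.0667). At E14.5 the groups also stood apart, at 70.9, 91.6, 54.1, 60.5, 76.8 and 57.2 CPM in controls and 99.4, 103, 92.9, 101 and 94.4 CPM in Isl1CKO, and the difference missed the threshold with edgeR (0.51 ± 0.13, adjusted p = 0.072) and passed it with DESeq2 (adjusted p = 0.00845) and limma-voom (adjusted p = 0.039). The effects at the 2 ages differed by 0.30 ± 0.22 (adjusted p = 0.588). Rgs4, highest of its class per kilobase in E14.5 controls, ranged at P9 from 2.91 to 83.2 CPM in controls and from 0.291 to 79.3 CPM in Isl1CKO. Rgs11, highest in P9 controls, held 38.2 to 65.3 CPM there and 30.5 to 73.3 CPM in Isl1CKO. Rgs2, named after its values were seen, held 7.79, 18.1, 42.3, 58.4, 953 and 33.5 CPM in P9 Isl1CKO and 12.4 to 29.6 CPM in controls, so that 1 library stood far above the rest. Its value of 3.13 ± 1.04 (adjusted p = 0.107) was 0.60 without that library. Of the GRK genes, Grk3 had the highest level per kilobase, with 91 to 148 CPM in P9 controls and 97.8 to 182 CPM in Isl1CKO.

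**Figure D4:**
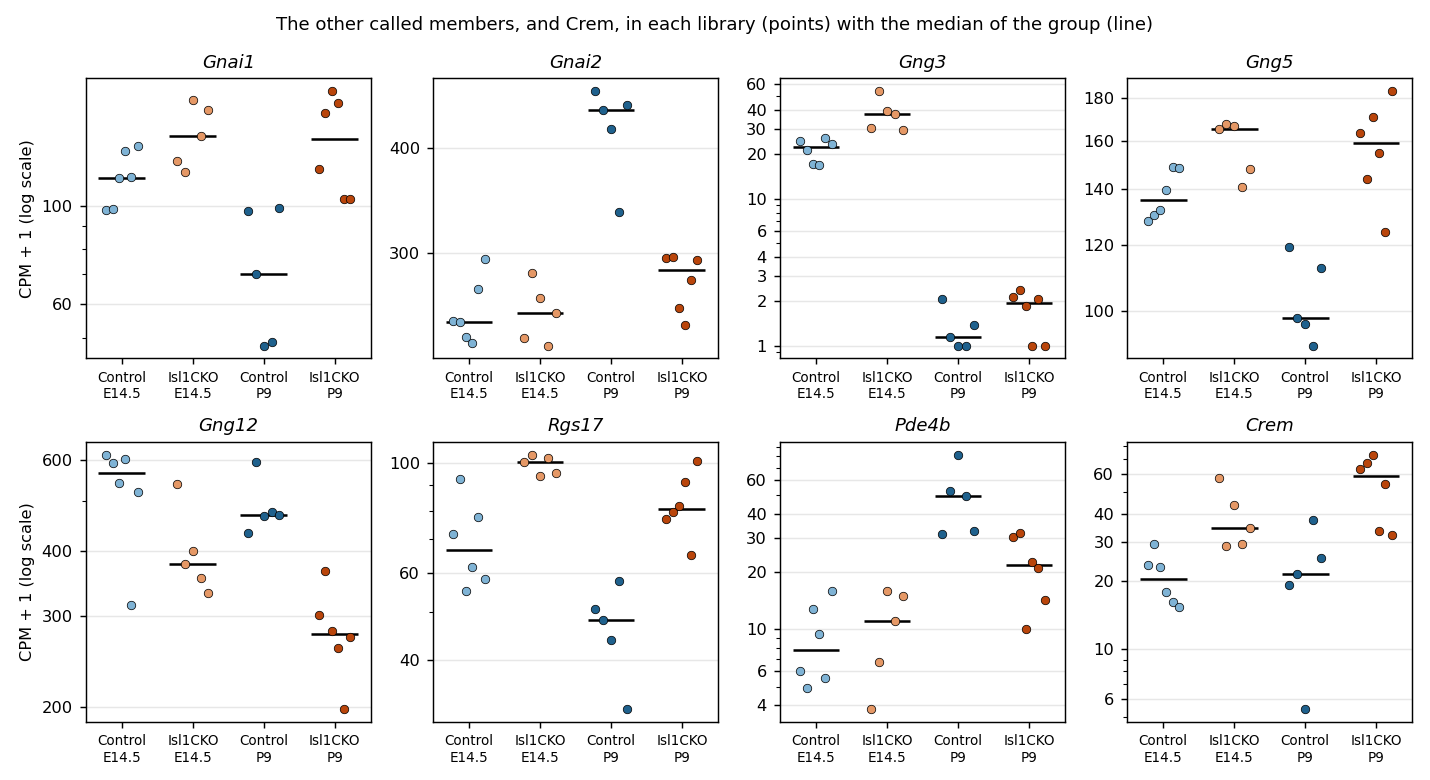
Level in CPM + 1 on log axes of the other 7 called members and of Crem, with 1 point per library and a line at the median of each group. At P9 the points of the 2 genotypes stand apart for Gnai1, Gnai2, Gng5, Gng12 and Rgs17 and overlap for Pde4b and Crem, and at E14.5 they stand apart for Gng3 and Rgs17.

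Per kilobase of exon, Prkar1a was the highest member in controls, at 222 ± 19 CPM per kb (SD, n = 6) at E14.5 and 188 ± 20 CPM per kb (n = 5) at P9. Gnb1 had a level of 117 ± 20 and 124 ± 21 CPM per kb at the 2 ages, and Gng12 of 112 ± 24 and 103 ± 13 CPM per kb. Gnb1 and Gng12 did not differ beyond their spread at either age. Gnai3 (77.4 ± 8.6 CPM per kb) and Gnai2 (67.5 ± 6.1 CPM per kb) were close at E14.5, and their order turned when the longest transcript gave the length, while at P9 Gnai2 (112 ± 14 CPM per kb) was above Gnai3 (51.4 ± 14 CPM per kb). Gnas had a level of 20.04 ± 2.4 CPM per kb in E14.5 controls, 4.48 ± 1.2 in P9 controls and 13.1 ± 1.1 in P9 Isl1CKO. Its exons together span 11186 bases and its longest transcript 3947, by which its level per kb would be higher. Its place beside other genes thus depends on the length used. The cyclases were lower, with Adcy9 at 2.57 ± 0.72 and 7.57 ± 1.6 CPM per kb in the controls of the 2 ages.

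**Figure D5:**
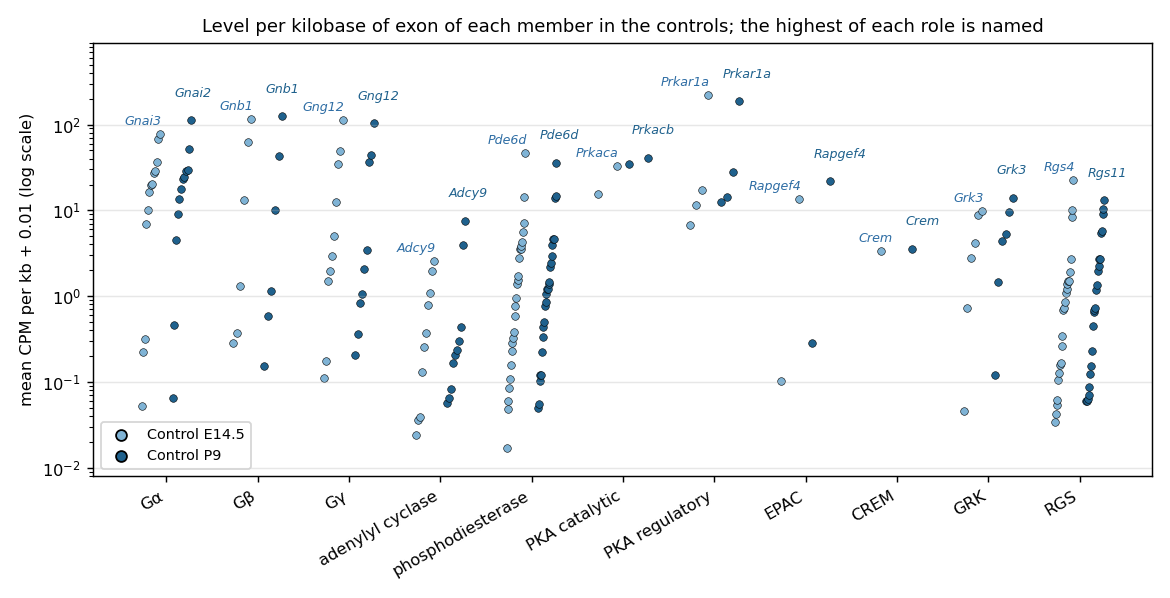
Mean level of each member in CPM per kb of exon, plus 0.01, on a log axis, in the E14.5 controls (light points) and the P9 controls (dark points), by role. The highest member of each role is named at each age, and Prkar1a is the highest of all.

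Between the ages the controls differed in many members. Of 87 tested, 23 were higher at P9 (26.4%) and 15 lower (17.2%), against 15.8% and 15.2% of all 17265 genes. With totals of all counts the median of all genes was -1.21 on the log2 scale and the calls 7 higher and 46 lower. These counts, too, show the dependence on scaling only. Gnai2 was higher at P9 by 0.85 ± 0.096 (edgeR adjusted p = 3.54e-07; -0.32 with totals of all counts). Prkacb went from 112 to 161 CPM at E14.5 to 206 to 500.3 CPM at P9 (1.51 ± 0.18, adjusted p = 1.12e-06; 0.34 with totals of all counts, adjusted p = 0.13). Pde4b was higher by 2.73 ± 0.44 and Rgs11 by 2.39 ± 0.36. Grk5 was higher by 1.05 ± 0.40 (adjusted p = 0.0484), a call that 16 of the 22 libraries ended when left out (adjusted p up to 0.111) and that was -0.12 with totals of all counts. Gng3 had the most negative value, -5.84 ± 0.76, and -7.04 without control library 1 of P9.

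The next genes are named after their values were seen. Pde5a, which degrades cGMP, went from 0.195 to 2.74 CPM in E14.5 controls to 17.3 to 44.8 CPM in P9 controls (5.38 ± 0.64, edgeR adjusted p = 8.88e-07; 6.45 without control library 4 of E14.5). Pde8a, which degrades cAMP, went from 5.23 to 17.4 CPM at E14.5 to 30.3 to 78.9 CPM at P9 (2.42 ± 0.30, adjusted p = 1.22e-06). Adcy5 went from 4.22 to 12.6 CPM at E14.5 to 0.145 to 1.74 CPM at P9 (-2.65 ± 0.54, adjusted p = 0.000642). Over their classes, 7 phosphodiesterases were called higher with age (35%) and 3 lower (15%) of 20 tested. Among these calls is Pde4dip, which shares only the name of the family. Of 8 cyclases 2 were called higher (25%) and 1 lower (12.5%). Over all genes the shares were 15.8% higher and 15.2% lower. Of the 5 members called higher in Isl1CKO at P9, Gnas and Pde1a were called lower with age above, and so were Rgs17 (-0.47 ± 0.16), Gng5 (-0.29 ± 0.11) and Gnai1 (-0.57 ± 0.20). Both comparisons use the P9 controls, and the values stand side by side as a description only. The age calls of Rgs17, Gng5 and Gnai1 were lost when 3, 7 and 7 of the 22 libraries were left out in turn.

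Receptors and targets around the members were read from 8 lists of related genes. At E14.5 2 of the 85 tested genes were called, both lower and both receptors of fatty acids that couple to Gq. Of all genes tested at E14.5, 0.602% were called higher and 0.827% lower. Ffar1 had a value of -1.27 ± 0.21 (edgeR adjusted p = 0.0067) and Ffar4 of -0.76 ± 0.16 (adjusted p = 0.0265), the latter call lost without control libraries 3 or 6 or Isl1CKO libraries 1, 2 or 5 (adjusted p up to 0.0882). At P9 4 of 72 tested were called higher and 9 lower (17 and 9 with totals of all counts). With TMM scaling 2.66% of all genes were called higher at P9 and 2.14% lower. Of the 6 receptors coupled to Gs, Glp1r, the GLP-1 receptor, fell (-2.92 ± 0.39, adjusted p = 0.000448), as did Gpr119 (-3.72 ± 0.71). Of the 7 coupled to Gi, Adra2a, an adrenergic receptor, fell (-3.15 ± 0.38, adjusted p = 0.000187) and Ptger3, a prostaglandin receptor, rose (4.35 ± 0.93, and 5.6 without control library 3, but not called by limma-voom, adjusted p = 0.262). Of the 7 coupled to Gq, Ffar1 (-1.41 ± 0.30) and P2ry6 (-3.27 ± 0.76) fell, the P2ry6 call lost without control libraries 1, 4 or 5 (adjusted p up to 0.0546) and its value -4.02 without Isl1CKO library 4.

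Of the 13 cAMP-responsive genes tested at P9, 4 were called lower (30.8%), against 2.14% of all genes. The 4 were Sst, the somatostatin gene, and the immediate early genes Fos (-1.29 ± 0.29), Fosb (-1.85 ± 0.41) and Dusp1 (-2.19 ± 0.31). Over the list 6 values were positive and 7 negative, and whether cAMP signalling itself differed was not tested. The Fos call was lost with totals of all counts (-0.61, adjusted p = 0.154), limma-voom made the same 4 calls, and DESeq2 called 1 gene of this list higher and 5 lower. The median of the list was -0.24, beside 0.023 over all genes. Of the 13 anchors and inhibitors of protein kinase A, Akap5, an anchor, was higher (3.67 ± 0.99, edgeR adjusted p = 0.0458), a call lost without any 1 of the 5 controls (adjusted p up to 0.113, and adjusted p = 0.0626 with limma-voom; 4.32 without control library 1). Of the 7 guanylyl cyclases, cGMP kinases and related channels, Npr2, a natriuretic peptide receptor, was higher (1.55 ± 0.34, edgeR adjusted p = 0.0147). In this list limma-voom called 2 genes higher and 1 lower, and DESeq2, with values for 17 genes, 2 higher and 2 lower. The 10 CREB family genes and coactivators and the 10 arrestins and G protein regulators had 3 genes each with an unadjusted p under 0.05. Of all 13964 genes tested at P9, 2433 had such a p. These 2 lists had 0 edgeR and 0 limma-voom calls and 1 DESeq2 call each.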

How the data were processed

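RNA was measured in 22 libraries of 100 sorted tdTomato+ cells. The authors trimmed reads with cutadapt 1.18 and Trimmomatic, removed ribosomal reads with Bowtie 1.2.2 and SortMeRNA, aligned with STAR 2.7.0c to GRCm38 and counted reads per gene with Rsubread without strand, and they deposited raw counts in 1 table per age. No deposited gene had a total under 10 counts over 11 libraries. Groups came from the labels. Counts were tested with edgeR 4.0.16 (quasi-likelihood, TMM, filterByExpr, R 4.3.3) within each age, and over all 22 libraries for the differences between ages and for age in controls, with Benjamini-Hochberg adjustment over all genes tested. A prior count keeps fold changes of low genes finite. Gene names, positions and exon lengths came from GENCODE M21. DESeq2 1.42.0, limma-voom 3.58.1, other library sizes and filters, a replicate block and leaving out libraries were alternatives, and 2 of them, leaving out 2 libraries each, were chosen after seeing the data. The tests were checked on simulated counts. Named were Gnas, Pde1a and Grk5, members called within an age or between ages, and in each role the member with the highest control level per kilobase and that with the smallest p at each age. List genes were named where called, except for a result that is not reported here. Members and lists were chosen with earlier results of these data known. Sst, with near-0 counts in Isl1CKO, is given without a fold. Counting error limits low genes, and the smallest chi-square per degree of freedom between libraries, 22.4, showed no duplicates.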

Additional observations from a re-analysis of the deposited data

Results flagged for a closer look

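In 8 of 132 sets of 5 or 6 libraries of 1 group, 1 library stood apart from the others by Dixon's criterion, where chance gives about 1 in 20. Gnas was at 171 CPM in control library 1 of E14.5, with the next library at 227. Gng12 was at 314 CPM in control library 5 of E14.5 (next 518) and at 593 CPM in control library 2 of P9 (next 475). Adcy8 was at 1.09 CPM in control library 1 of E14.5, Pde5a at 2.74 CPM in control library 4 of E14.5 and Prkar1a at 1263 CPM in Isl1CKO library 1 of E14.5. Grk5 was at 48.7 CPM in control library 1 of P9 (next 36.4). Rgs2 was at 953 CPM in Isl1CKO library 5 of P9, with the next library at 58.4.

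The effect of genotype differed between the ages, by the interaction term in edgeR, for 4 members. The P9 effect minus the E14.5 effect was 1.59 for Gnas, 4.29 for Pde1a, -0.63 for Gnai2 and -2.66 for Grk5. At P9 the direction was the same in all 6 Isl1CKO libraries against all 5 controls for each of the 4.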

How the results depend on the processing

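With edgeR and TMM, 2 members were called at E14.5, 9 at P9, 4 for the difference between ages and 38 for age, and 2 and 13 list genes at E14.5 and P9. At E14.5 the members called were 5 with DESeq2, 4 with limma-voom, 1 without a filter on low counts and 4 with a mean of at least 50 scaled counts, and the list genes 8 with DESeq2, 4 with limma-voom, 4 with totals without the hormone genes, 6 with the higher minimum and 1 without the 2 Isl1CKO libraries of highest macrophage markers. At P9 totals of all counts gave 25 members and 26 list genes, and DESeq2 14 and 22. For the difference between ages, totals of all counts gave 16. The replicate numbers did not pair the libraries (correlations of deviations from -0.05 to 0.06, and some libraries correlated best with another number). A replicate block gave 1 member at E14.5, 5 at P9 and 7 list genes at P9. Leaving out 1 library gave 1 to 3 members at E14.5, 5 to 10 at P9, 4 to 6 for the difference between ages and 32 to 41 for age, and 1 to 3 and 11 to 14 list genes. Some values changed sign, the called P9 value of Gnai2 and some called for age among them, and the cause was not tested. With totals of all counts they were 0.00603 for Pde1a and 0.0114 for Gnai2 at E14.5, 0.00827 for Gnai2, 0.420 for Rapgef4, 0.135 for Gnai3, 0.222 for Gnb1, 0.168 for Pde6d, 0.0247 for Pde6c, 0.672 for Rgs11 and 0.276 for Adcy9 at P9 and -0.122 for Grk5, -0.320 for Gnai2, -0.358 for Rapgef4 and -0.536 for Grk3 for age. With the replicate block they were 0.0834 for Pde1a, 0.0316 for Gnai2, -0.00953 for Gnb1, 0.192 for Rgs4, -0.132 for Pde8a and -0.000156 for Adcy5 at E14.5. With limma-voom the E14.5 value was 0.0324 for Rgs4, and without a filter the P9 value was 0.0117 for Rgs11. Without the 2 libraries of highest macrophage markers they were 0.00543 for Gnai2, -0.112 for Pde4b, -0.0949 for Gnb1, 0.158 for Adcy9 and -0.143 for Adcy5. Leaving out 1 library gave -0.0539 to 0.282 for Adcy5, -0.0512 to 0.0324 for Gnai2, -0.0456 to 0.126 for Gnb1, -0.0983 to 0.0106 for Grk3, -0.142 to 0.0963 for Pde1a, -0.115 to 0.191 for Pde8a, -0.0315 to 0.0895 for Prkaca and -0.197 to 0.137 for Rgs4 at E14.5 and -0.109 to 0.517 for Gnb1l, -1.51 to 0.268 for Pde6c, -0.0328 to 0.287 for Prkacb and -0.116 to 0.104 for Rgs11 at P9. RLE factors kept each count within 1.5 times. Depth limits members at a few CPM, such as Adcy8, Gnal and Gng3 at P9.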
